A study of Oryza sativa with 4 samples.

Results

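LOC_Os08g02300 and LOC_Os01g15830 are the genes by which the study marked epidermis and stele in nuclei of the rice root tip. Their loci were followed as 2 of the 66332 regions obtained by merging the peaks of all libraries, and both belong to the 55496 regions called in every library. Their peaks were taken by position, as those that overlap 2 windows. The genes were not a neutral choice, since the study showed them with peaks specific to clusters of nuclei in these data. The window of LOC_Os08g02300 runs from 865825 to 869282 on chromosome 8, and that of LOC_Os01g15830 from 8930195 to 8940873 on chromosome 1. No annotation of the files' genome build was used here, so exons, introns and start sites inside the windows are not given and the pairing of window and gene rests on the position that the study's browser views show. Those views draw LOC_Os08g02300 mostly beyond the right end of its window, so that open at LOC_Os08g02300 here means open in the stretch at and before its left end, and regions beyond the window may lie in the gene itself. The build is a Nipponbare genome, and none of the sources used here gives its version.

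The data are single-cell ATAC-seq (scATAC-seq), an assay in which Tn5 transposase cuts open DNA in isolated nuclei before the fragments of every nucleus are tagged with a common barcode. A cut site is 1 end of such a fragment. There were 4 libraries from primary root tips of 5 mm, taken from seedlings of the cultivar Nipponbare at 3 days of age. Seedlings of all 4 libraries were grown at 28 °C. Those of the 2 Normal libraries had no heat treatment, and those of the 2 heat stress (HS) libraries were, by the account of the study, kept at 45 °C for 3 h. Tips of many seedlings were pooled for each library, and the HS libraries came from separate rounds, while no source used here says whether the Normal nuclei came from separate pools. P-values therefore measure the spread between these libraries, which may be technical, and no source used here says how preparation batches fell across the conditions. After removal of likely doublets, 11094 and 11016 Normal nuclei and 9571 and 9577 HS nuclei remained. Between 163 and 254 barcodes were shared by any pair of libraries, which was at most 2.0% of the cells of a library before doublets were removed.

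The epidermis is the outer layer of the root and gives rise to root hairs, the tubular outgrowths that take up water and ions. The stele is the central cylinder that holds xylem and phloem, and the root cap covers the growing tip. Open chromatin at a gene marks DNA that regulatory proteins can reach, and a gene used as a marker of 1 tissue would be open mainly in the nuclei of that tissue. LOC_Os08g02300 belongs to the NAC family of transcription factors, a family specific to plants. Both genes mark cell types here by their names in the study, and no RNA was measured in these libraries.

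Both loci were broad and of unlike shape. In the Normal libraries the chromosome 8 locus held 2 peaks, at 865867 to 866704 and 867253 to 869271 in replicate 1 and at 865825 to 866704 and 867260 to 869246 in replicate 2. In the HS libraries a single peak spanned both, from 865857 to 869282 in replicate 1 and from 865861 to 869263 in replicate 2. The length called was thus 2857 and 2867 bp in Normal against 3426 and 3403 bp in HS. Joined peaks of this kind were uncommon, since 3.32% of the regions had more peaks in both Normal libraries than in either HS library. The chromosome 1 locus was called as 1 peak in each library, of 10615, 10399, 10675 and 10484 bp. It is among the longest regions of the data, as 1440 of the regions called in every library, or 2.59%, were as long or longer, against a median length of 1582 bp. A matrix holds no count outside the peaks of its own library, so the stretch between the Normal peaks of LOC_Os08g02300 is counted in HS alone.

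**Figure D1:**
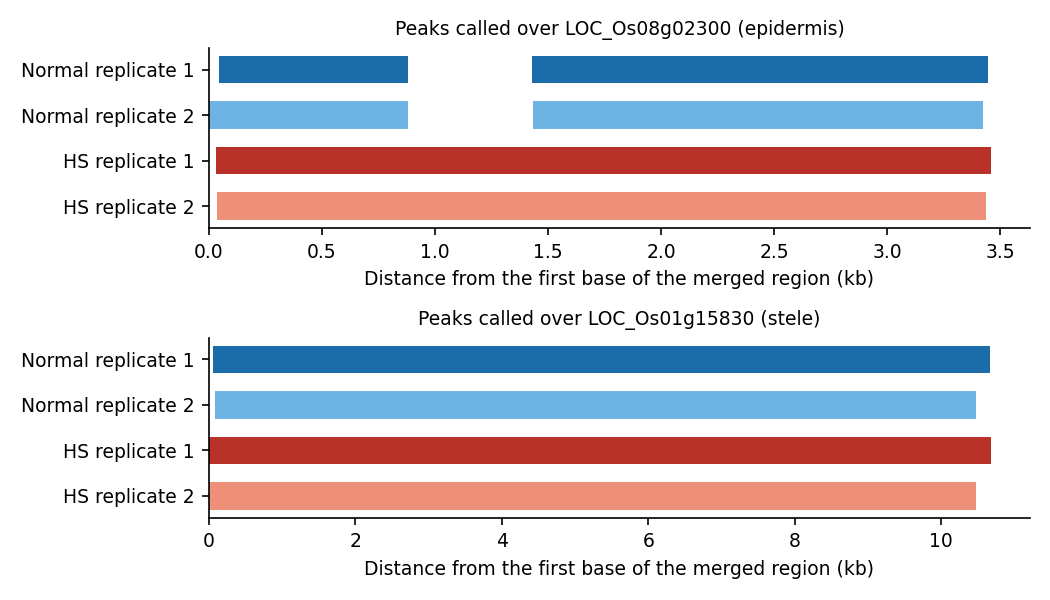
Peaks called in each of the 4 libraries over the 2 loci, as bars along the distance in kb from the first base of the merged region. LOC_Os08g02300 was covered by 2 peaks in both Normal libraries and by 1 in both HS libraries, and LOC_Os01g15830 by 1 peak of more than 10 kb in all 4.

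The stele locus was open in 4.78, 4.92, 5.48 and 5.23 times as many nuclei as the epidermis locus in Normal replicates 1 and 2 and HS replicates 1 and 2. To set libraries of unequal depth side by side, each nucleus was thinned to 5000 fragments in shared regions, which left out 1470, 1338, 1183 and 930 shallower nuclei, and a locus was called open where at least 1 fragment lay in it. LOC_Os08g02300 was then open in 6.86% (95% exact binomial interval 6.36 to 7.38) of 9624 nuclei of Normal replicate 1 and in 6.54% (6.06 to 7.05) of 9678 of replicate 2. In HS it was open in 6.20% (5.69 to 6.74) of 8388 nuclei of replicate 1 and 6.51% (5.9999 to 7.05) of 8647 of replicate 2. These intervals overlap and cover counting error only. LOC_Os01g15830 was open in 32.8% (31.9 to 33.8) and 32.2% (31.3 to 33.1) of the same Normal nuclei. In HS the shares were 34.0% (33.0 to 35.0) and 34.1% (33.1 to 35.1), both above both Normal values.

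The HS nuclei were deeper, with a median of 14036.5 and 13961 fragments against 11848 and 11847.5 in Normal. With all fragments of the same nuclei LOC_Os08g02300 was open in 15.0% and 14.4% in Normal and 16.3% and 16.1% in HS, and LOC_Os01g15830 in 54.2% and 53.1% against 58.7% and 58.1%. For LOC_Os08g02300 the order of the conditions was thus the opposite of that at equal depth.

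By way of scale, the median region was open in 3.69% to 3.74% of nuclei, and between 65.1% and 68.3% of the regions were open in fewer nuclei than LOC_Os08g02300. For LOC_Os01g15830 that figure lay between 95.9% and 96.5%. Length enters these shares. Per 10000 cut sites and per kb called, LOC_Os08g02300 held 0.0503 and 0.0469 cut sites in Normal and 0.0420 and 0.0422 in HS, where the median region held 0.04997 to 0.0502. The density of LOC_Os08g02300 was thus close to that of a middling region, and below it in Normal replicate 2 and in HS. In HS the length called also holds the stretch between the Normal peaks. LOC_Os01g15830 held 0.0929, 0.0915, 0.0975 and 0.0990 cut sites per 10000 and kb, denser than 81.1% to 84.7% of the regions.

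Within a library, the number of fragments per nucleus had a larger variance over its mean at the chromosome 1 locus than at most regions. In Normal replicate 1, 6467 of the thinned nuclei had no fragment there, 2131 had 1, 698 had 2, 213 had 3 and 115 had 4 or more. The variance of the fragment number over its mean was 1.47, 1.44, 1.43 and 1.41 in the 4 libraries, where the median of regions open in at least 5% of nuclei was 1.05 to 1.06, and between 99.67% and 99.9% of those regions had a lower value. LOC_Os08g02300 gave 1.10, 1.13, 1.15 and 1.12, above 82.4% to 91.2% of them. For like relative differences between nuclei, this measure rises with the mean. The mean was 0.468 to 0.500 fragments at LOC_Os01g15830 and 0.0689 to 0.0748 at LOC_Os08g02300. The standings were not corrected for it, so they do not rank the loci by relative difference. Few nuclei held more than 1 fragment at this locus, between 52 and 61 per library.

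Barcodes not taken as cells carried both loci as well. Per 10000 cut sites, they held 0.162 and 0.136 in Normal and 0.149 and 0.176 in HS at LOC_Os08g02300, against 0.135 to 0.144 in nuclei. At LOC_Os01g15830 they held 0.898 to 0.995, against 0.952 to 1.04 in nuclei. The levels of these barcodes at the loci were thus near those of the nuclei as a whole. Such barcodes may hold free DNA or shallow nuclei, which were not told apart. The part of free DNA in the shares was not tested.

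**Figure D2:**
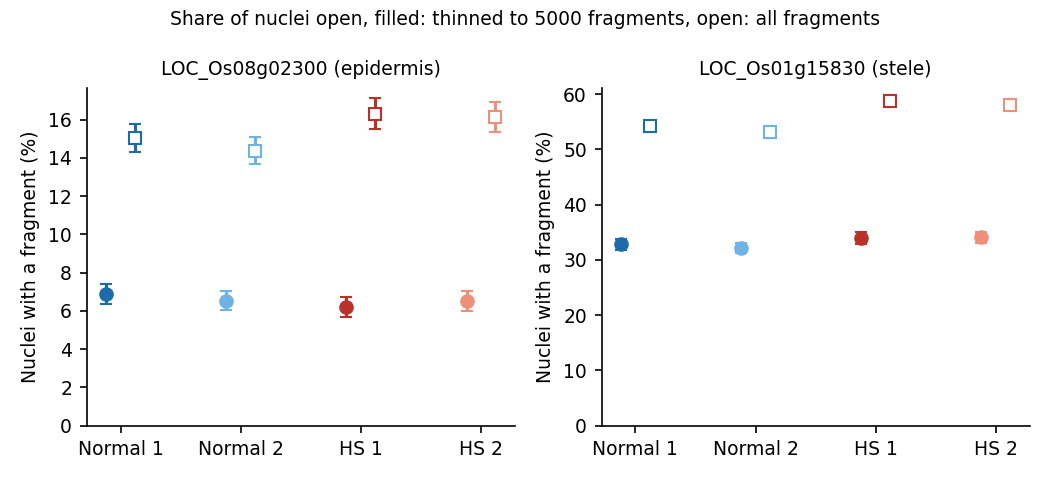
Percent of nuclei with at least 1 fragment at each locus in the 4 libraries, filled circles after thinning to 5000 fragments and open squares with all fragments of the same nuclei, with 95% exact binomial intervals. At equal depth LOC_Os08g02300 lay between 6.20% and 6.86% and LOC_Os01g15830 between 32.2% and 34.1%.

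The 2 loci did not exclude each other in single nuclei. If they were open independently, 217, 204, 177 and 192 nuclei of Normal replicates 1 and 2 and HS replicates 1 and 2 would have been open at both. The numbers observed at equal depth were 270, 242, 206 and 218. Observed over expected was 1.25 (95% Poisson interval 1.10 to 1.41) and 1.19 (1.04 to 1.35) in Normal and 1.17 (1.01 to 1.34) and 1.14 (0.991 to 1.298) in HS. All 4 ratios lay above 1, with a mean of 1.18, and the interval of HS replicate 2 reached below 1. These intervals take the expected number as fixed, though it comes from the shares of the same nuclei, so they are approximate. Nuclei are not replicates, so these ratios are a description over 4 libraries and carry no test.

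Put as shares, LOC_Os01g15830 was open in 40.9%, 38.2%, 39.6% and 38.7% of the nuclei open at LOC_Os08g02300 and in 32.2%, 31.8%, 33.6% and 33.7% of those closed there. LOC_Os08g02300 was open in 8.55%, 7.77%, 7.23% and 7.402% of the nuclei open at LOC_Os01g15830, against 6.03%, 5.96%, 5.67% and 6.05% of the others. With 2 fragments at the stele locus, the epidermis locus was open in 8.17% and 10.3% of Normal nuclei and in 5.73% and 7.22% of HS nuclei. With 3 fragments the values were 11.7% and 10.1% in Normal and 5.85% and 6.04% in HS. The Normal values at 2 and 3 fragments thus lay above those without a fragment, while the HS values at 2 and 3 fragments lay below those at 1 fragment, 7.74% and 7.45%. At 4 or more fragments the values were 9.57% and 7.37% in Normal and 9.89% and 10.2% in HS, so that no contrast between the conditions held over all bins. The intervals at 3 fragments were wide, from 7.74% to 16.84% in Normal replicate 1 and from 3.06% to 10.0% in HS replicate 1.

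The ratio was compared with that of other regions. Among 20819 regions that lay more than 1 Mb away or on another chromosome and were open in at least 5% of nuclei in each library, the median ratio with LOC_Os08g02300 was 0.999 to 1.00 per library, and its 5th and 95th percentiles were 0.794 and 1.205 in Normal replicate 1. The stele locus stood above 97.2%, 93.2%, 89.8% and 86.5% of these regions in the 4 libraries, and above 98.1% by the mean ratio. Seen from LOC_Os01g15830, with 20808 such regions, the epidermis locus stood above 99.6%, 99.03%, 98.4% and 97.0%. The median near 1 covers only pairs that hold a member. Thinning every nucleus to the same number of fragments also holds such ratios near 1 on average. The pair of members lay in the upper part of the order. The regions were not matched to the members by share of nuclei open, and ratios of regions open in fewer nuclei rest on fewer counts. The standings were not corrected for this.

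The excess was smaller under some settings and not under others. With 10000 fragments per nucleus the ratios were 1.24 and 1.16 in Normal but 1.02 and 1.10 in HS. Without thinning and with nuclei in 10 strata of depth, they were 1.17, 1.15, 1.06 and 1.07. With no removal of doublets, which put fragments of unlike nuclei under 1 barcode, they were 1.26, 1.17, 1.14 and 1.15, near those with removal. Outside the root hair-like and root cap-like nuclei described next, they were 1.21, 1.16, 1.09 and 1.09. Where openness asked for at least 2 fragments HS replicate 1 fell below 1, at 0.87, from 5 nuclei against 5.73 expected. Within root hair-like or root cap-like nuclei alone, where few nuclei were open at both, ratios lay on either side of 1.

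**Figure D3:**
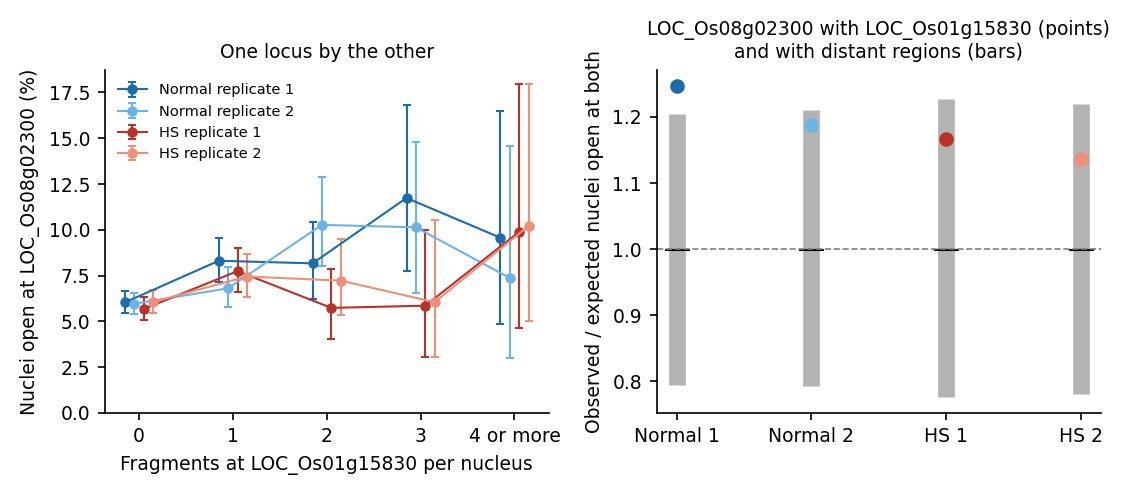
Left, percent of nuclei open at LOC_Os08g02300 by the number of fragments at LOC_Os01g15830, per library with 95% exact binomial intervals. Right, observed over expected number of nuclei open at both loci (points), with the 5th to 95th percentile (bars) and median (dash) of the same ratio between LOC_Os08g02300 and distant regions. The points lie at 1.25, 1.19, 1.17 and 1.14, above the medians of 0.999 to 1.00.

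Some distant regions gave a higher ratio of observed to expected co-opening with a member than the other member did. For LOC_Os08g02300 the 3 distant regions with the highest ratios, ranked by the lowest of the 4 libraries, were chromosome 1 from 9329094 to 9334103, with ratios of 1.47 to 1.63, chromosome 6 from 20448660 to 20451439, with 1.41 to 1.68, and chromosome 2 from 7998384 to 8001145, with 1.35 to 1.55. For LOC_Os01g15830 they were chromosome 6 from 6270745 to 6274575, with 1.41 to 1.49, chromosome 1 from 10614697 to 10616788, with 1.39 to 1.52, and chromosome 4 from 7684617 to 7688496, with 1.38 to 1.52. No region stood in both lists of 3. These are the ends of an order over all these regions and carry no test, and the genes in them are not named here.

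Some regions near the members were also open together with them. Within 20 kb of the chromosome 8 locus lay 12 further regions. The nearest before it, from 864288 to 865022 and open in 1.34% to 1.76% of nuclei, gave ratios of 2.32 to 3.06. The nearest beyond it, from 869992 to 870237 and open in 0.227% to 0.393%, gave 0.80 to 2.55. The region from 870884 to 874600, 1602 bp beyond the locus and open in 8.46% to 10.8% of nuclei, gave ratios of 1.72 to 1.94 with LOC_Os08g02300. A second one, from 859669 to 862303 and open in 16.7% to 18.7%, gave 1.23 to 1.37, and another, from 881741 to 884175, gave 1.36 to 1.64. Around the chromosome 1 locus lay 8 regions. The nearest, from 8926717 to 8929223 and 972 bp before it, gave 1.32 to 1.63 with LOC_Os01g15830, while the nearest on the other side, from 8944246 to 8945303, gave 0.83 to 1.12. Neighbours with ratios above 1 in every library thus lay on both sides of the chromosome 8 locus and on 1 side of the chromosome 1 locus. A fragment with its ends in 2 nearby regions would count as open in both. How far this raised the ratios of the nearest regions was not tested.

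Within the chromosome 8 locus, the Normal peaks can be read apart. The first peak, of 838 and 880 bp, was open in 2.38% and 2.38% of nuclei at equal depth, and the second, of 2019 and 1987 bp, in 4.95% and 4.09%. Both were open in 14 nuclei of replicate 1, against 11.3 expected, and in 23 of replicate 2, against 9.41. Their ratios of 1.24 and 2.44 differ widely and rest on few nuclei. A fragment with 1 end in each peak would count in both, and how often that occurred was not tested. With the stele locus the first peak gave ratios of 1.36 and 1.44 and the second 1.29 and 1.22, above 1 for either peak in both libraries.

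Root hairs arise from epidermal cells, so the loci were next read in nuclei grouped by root hair genes. The grouping used 28 regions at root hair genes of the study's marker table and neither member. Of the 29 genes taken, 2 held no region. The study chose those genes on these libraries, and the list gives a range of scores and not a cell type. The study also showed the members as open in clusters other than that of root hairs. Lower opening of the members in root hair-like nuclei is thus not independent of how list and members were picked. The highest 10% of each library, 962, 968, 839 and 865 nuclei, was called root hair-like. Such nuclei had at least 10 list regions open and a median of 12, against 3 in the others, at a similar depth (median 22432 to 26630 cut sites against 23530 to 27872), and between 715 and 847 nuclei per library lay within 1 region of that limit. The root hair gene LOC_Os10g42750, kept out of the list, was higher in this group at the region from 23340790 to 23342506 on chromosome 10 (log2 change 1.65, SE 0.06, edgeR adjusted p = 2.05e-09). At its other regions the log2 changes were 0.80 (edgeR adjusted p = 0.000118) and 0.66, the latter not past 0.01 (edgeR adjusted p = 0.0432). The root cap gene LOC_Os04g53640 was higher too (log2 change 1.02, SE 0.06, edgeR adjusted p = 1.31e-07), and LOC_Os01g73700, another root cap gene, was higher at the region from 42929897 to 42931587 on chromosome 1 (log2 change 0.96) but not past the test at 42927473 to 42928765 (0.12, edgeR adjusted p = 0.202). The group was therefore not free of signal from root cap genes, and their part in the results below was not tested.

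Both members were less open in root hair-like nuclei. LOC_Os08g02300 was open at equal depth in 3.85% and 4.13% of root hair-like nuclei in Normal and in 3.34% and 1.97% in HS, against 7.19%, 6.81%, 6.52% and 7.02% of the other nuclei of the same libraries. The highest root hair-like value lay below the lowest value of the others. LOC_Os01g15830 was open in 23.2%, 25.6%, 24.6% and 24.7% of root hair-like nuclei and in 33.9%, 32.9%, 35.0% and 35.1% of the others, again without overlap.

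Summed over nuclei with all their fragments, LOC_Os08g02300 had 7.68, 8.04, 7.01 and 4.82 cut sites as CPM (counts scaled to 1000000 per library and group, with TMM factors) in root hair-like nuclei of the 4 libraries and 14.6, 13.4, 14.8 and 14.8 in the others. It was lower by a log2 change of -1.07 (SE 0.12, edgeR quasi-likelihood test with library as block, adjusted p = 1.59e-05 over 55495 regions, lower in 4 of 4 libraries). LOC_Os01g15830 had 57.3, 61.0, 64.9 and 62.6 CPM against 99.5, 94.6, 106 and 105, a log2 change of -0.72 (SE 0.04, edgeR adjusted p = 9.05e-08, lower in 4 of 4). The limits of the study, an adjusted p of at most 0.01 and a 2-fold change, were passed by 1 of the 2 members, LOC_Os08g02300, where 7.04% of all regions passed them in this direction and 6.2% in the other. By the adjusted p alone both members passed, against 20.9% of all regions as lower and 21.6% as higher. Lower values than that of LOC_Os08g02300 were held by 6.31% of the regions, and lower than that of LOC_Os01g15830 by 12.4%. Without HS replicate 2, whose root hair-like value was the lowest, the log2 change of LOC_Os08g02300 was -0.91 and no longer 2-fold (edgeR adjusted p = 9.73e-06).

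The fall at LOC_Os08g02300 was not even along the locus. In the Normal libraries the second peak held 3.79 and 3.70 CPM (not scaled by TMM) in root hair-like nuclei, against 10.7 and 9.57 in the others, log2 ratios of -1.50 and -1.37. The first peak held 3.62 and 4.08, against 4.38 and 4.44, log2 ratios of -0.28 and -0.12. Root hair-like nuclei thus had about equal counts in both peaks, 85 and 89 cut sites in replicate 1 and 96 and 87 in replicate 2, while the other nuclei had 950 and 2330 in replicate 1 and 972 and 2094 in replicate 2. The peaks were taken apart after the values of the whole locus were seen, and their difference was not tested. In HS they are joined and cannot be separated.

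The share of open nuclei by the number of root hair regions open did not fall evenly. LOC_Os08g02300 was open in 5.999% to 7.42% of the nuclei with 0 or 1 list region open, in 6.87% to 8.03% of those with 2 or 3, in 7.28% to 8.75% of those with 4 or 5, and in 3.93% to 6.33% of those with 6 or 7. At 12 or more it was open in 3.78% and 4.15% in Normal and in 3.75% and 2.23% in HS. LOC_Os01g15830 went from 30.1% to 32.8% at 0 or 1 regions to 37.0% to 38.3% at 4 or 5, and then to 23.2%, 29.1%, 24.0% and 24.5% at 12 or more. LOC_Os01g15830 was open in its largest share at 4 or 5 regions in all 4 libraries, while the largest share of LOC_Os08g02300 stood at 0 or 1 in Normal replicate 2, at 2 or 3 in Normal replicate 1 and HS replicate 2 and at 4 or 5 in HS replicate 1. At 6 or 7 regions LOC_Os01g15830 was open in 29.3% and 27.2% of Normal nuclei against 34.5% and 37.7% of HS nuclei, and at 8 or 9 in 27.5% and 25.0% against 32.7% and 31.7%, while at 4 or 5 the conditions overlapped. This gap was not tested.

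**Figure D4:**
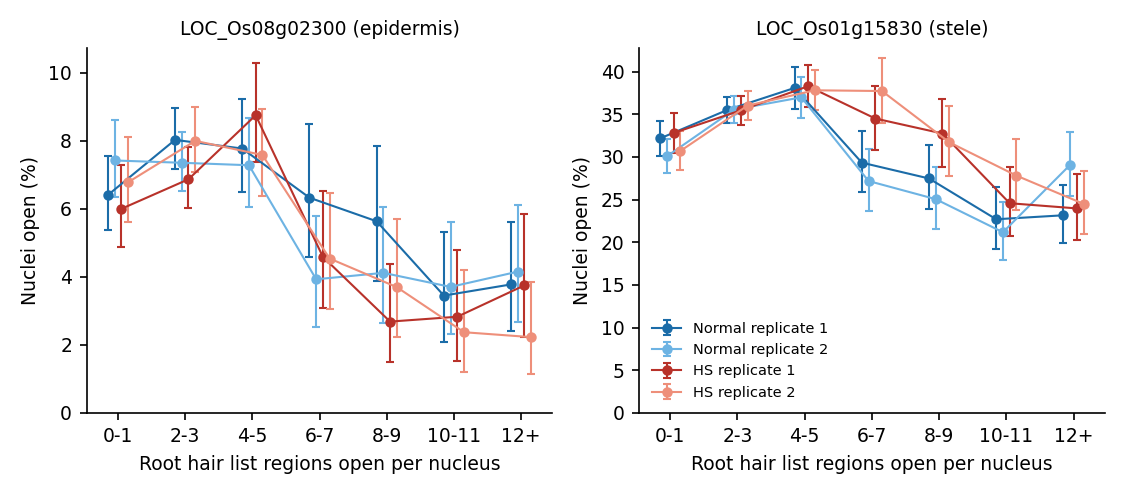
Percent of nuclei open at each locus, thinned to 5000 fragments, by the number of the 28 root hair list regions open in the same nucleus, per library with 95% exact binomial intervals. LOC_Os08g02300 was open in at least 7.28% of nuclei at 4 or 5 regions and in at most 4.15% at 12 or more.

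Lower opening of the members was also seen in nuclei grouped by root cap genes. Root cap-like nuclei were the highest 10% by 55 regions at 29 root cap genes, taken among the nuclei not called root hair-like. LOC_Os04g53640, kept out of that list, was open in 28.6%, 32.1%, 26.0% and 28.2% of them. It was open in 4.66%, 4.29%, 4.28% and 4.44% of the nuclei in neither group. LOC_Os01g73700, also kept out, was open in 13.0%, 13.6%, 13.8% and 13.6%, against 8.56%, 8.82%, 9.14% and 8.49% in neither group. The root hair gene LOC_Os10g42750 was open in 9.56%, 9.40%, 7.87% and 6.47%, against 6.79%, 6.72%, 7.03% and 6.06%. LOC_Os08g02300 was open in 3.12%, 2.69%, 3.10% and 2.89% of root cap-like nuclei, and LOC_Os01g15830 in 23.8%, 21.0%, 24.9% and 23.8%. These shares are given without a test. In the nuclei of neither group LOC_Os08g02300 was open in 7.70%, 7.32%, 6.94% and 7.53%, and LOC_Os01g15830 in 35.1%, 34.4%, 36.3% and 36.5%. Against that remainder the fall in root hair-like nuclei was a log2 change of -1.17 at LOC_Os08g02300 (edgeR adjusted p = 1.21e-05) and -0.79 at LOC_Os01g15830 (edgeR adjusted p = 9.95e-08), a setting added after the data were seen. In single nuclei LOC_Os08g02300 and LOC_Os04g53640 were open together less often than expected, with ratios of 0.77, 0.62, 0.40 and 0.57, and LOC_Os01g15830 and LOC_Os04g53640 gave 0.81, 0.78, 0.80 and 0.94. With LOC_Os10g42750, the ratios were 1.09, 0.73, 0.83 and 0.90 at LOC_Os08g02300 and 0.95, 0.98, 1.03 and 1.05 at LOC_Os01g15830, on either side of 1. With the root cap gene LOC_Os01g73700 they were 1.12, 0.85, 0.77 and 0.92 at LOC_Os08g02300 and 0.98, 0.97, 1.07 and 1.01 at LOC_Os01g15830, so that the deficit seen with LOC_Os04g53640 was not shared by both root cap genes.

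**Figure D5:**
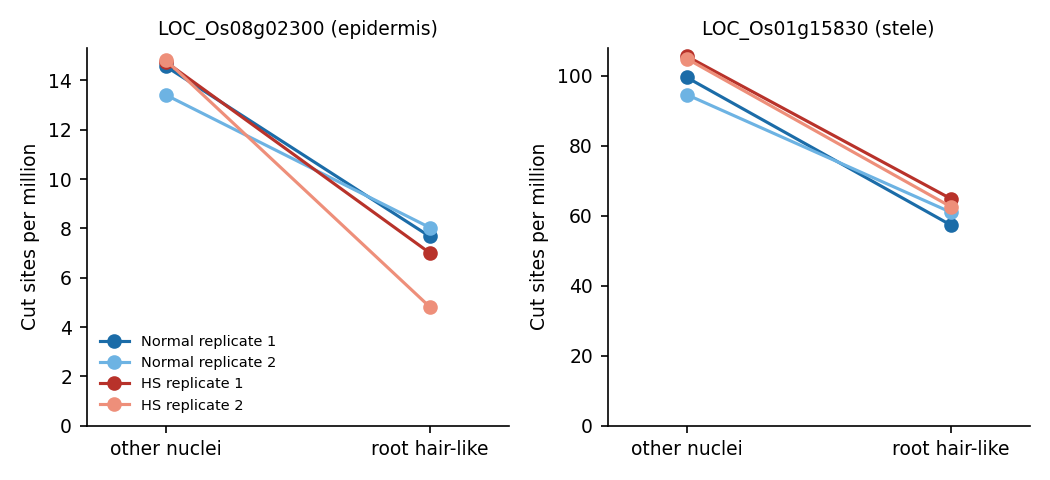
Cut sites in CPM, scaled by TMM, at each locus in root hair-like nuclei and in the other nuclei of the same library, 1 line per library. LOC_Os08g02300 lay between 4.82 and 8.04 in root hair-like nuclei and between 13.4 and 14.8 in the others, and LOC_Os01g15830 between 57.3 and 64.9 against 94.6 to 106.

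Heat left both members within 2-fold of their Normal level. LOC_Os08g02300 had 14.35 and 13.41 CPM in all nuclei of the Normal libraries and 14.44 and 14.39 in HS. Its log2 change was 0.05 (SE 0.04, edgeR adjusted p = 0.285), and it did not pass the test. LOC_Os01g15830 had 98.5 and 94.8 in Normal and 104.5 and 103.9 in HS, a log2 change of 0.11 (SE 0.02, edgeR adjusted p = 0.0021). It was higher after heat by the adjusted p and far from the 2-fold limit, so that 0 of 2 members passed both limits in either direction, where 2.06% of all regions passed them as higher and 2.9% as lower. By the adjusted p alone, 1 of 2 passed as higher, against 25.2% of all regions as higher and 23.3% as lower. At an unadjusted p under 0.05 that count was 1 by edgeR and 1 by DESeq2, LOC_Os01g15830 each time. The share of all regions at that limit was not counted. At an adjusted p of 0.05 by edgeR, a stricter limit, 17794 of 55495 regions already passed as higher and 17118 as lower. The count of 1 thus does not set the members apart.

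The sign at LOC_Os08g02300 turned with the length called, which was longer in HS. With that length as an offset in the fit its log2 change was -0.20 (SE 0.05, edgeR adjusted p = 0.0244). In nuclei thinned to equal depth, without that offset, it was -0.056, smaller than its SE of 0.058 (edgeR adjusted p = 0.433). LOC_Os01g15830, of nearly constant length, had 0.10 with the offset (edgeR adjusted p = 0.0126) and 0.07 at equal depth (edgeR adjusted p = 0.0251), neither of which passed the limit of 0.01. It was not passed without Normal replicate 2 either (log2 change 0.08, edgeR adjusted p = 0.0174). Among the 2777 regions whose called length rose like that of LOC_Os08g02300, the median log2 change after heat was 0.31, and 13.9% had a lower value. At equal depth the mean share of open nuclei was 6.70% ± 0.22 (SD, n = 2) in Normal and 6.36% ± 0.22 in HS at LOC_Os08g02300, and 32.5% ± 0.43 against 34.0% ± 0.07 at LOC_Os01g15830 (exact two-sided permutation p = 0.333 for both). That is the smallest p that 2 libraries against 2 allow.

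In root hair-like nuclei LOC_Os08g02300 had 7.68 and 8.04 CPM in Normal and 7.01 and 4.82 in HS, a log2 change of -0.41 (SE 0.18) that did not pass the test (edgeR adjusted p = 0.072), while in the other nuclei the log2 change was 0.08 (SE 0.05, edgeR adjusted p = 0.184). The difference of these changes was -0.50 on the log2 scale (SE 0.16, edgeR adjusted p = 0.0279), short of the limit of 0.01, which 3.61% of all regions passed with a positive and 3.96% with a negative difference. Both limits were passed by neither member, and by 0.281% and 0.294% of all regions. With the replicate number as a block the adjusted p was 0.0757 (edgeR). Without HS replicate 2 the difference was -0.24 (edgeR adjusted p = 0.515), without Normal replicate 2 -0.40 (edgeR adjusted p = 0.188), and without HS replicate 1 it was -0.78 (edgeR adjusted p = 0.00179). LOC_Os01g15830 changed by 0.11 in root hair-like nuclei (SE 0.06, edgeR adjusted p = 0.14) and by 0.11 in the others (SE 0.02, edgeR adjusted p = 0.00327), with a difference of -0.01 (SE 0.05, edgeR adjusted p = 0.939).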

How the data were processed

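The authors ran the Cell Ranger ATAC pipeline (1.2.0) on each of the 4 libraries and deposited its peaks, barcodes and a matrix of raw counts of Tn5 cut sites per peak and barcode, not filtered for cells. Barcodes were ranked by cut sites and taken as cells from the top, in the number that the study gives for each library (12708, 12604, 10719 and 10727), and a doublet score from 50 neighbours in up to 30 latent components, members left out, removed 1614, 1588, 1148 and 1150 of them. Peaks sharing 1 bp were merged. Cut sites in the shared regions summed to 251469842 to 257728601 per library. Fragments were taken as cut sites over 2, rounded up. Sums per library, or per library and group, were tested with edgeR 4.0.16 (TMM, filterByExpr, quasi-likelihood, Benjamini-Hochberg over all regions; biological coefficient of variation 0.0623 for heat and 0.081 for groups of nuclei), with DESeq2 1.42.0 as alternative, in R 4.3.3. Other steps used Python 3.11.15, numpy 2.4.6, scipy 1.17.1, pandas 2.3.3, scikit-learn 1.9.0 and matplotlib 3.10.9. Binomial intervals are exact, Poisson intervals of ratios take the expected number as fixed and are approximate. Both are at the 95% level and cover counting error only. The tests were checked on simulated data.

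The text names the members, LOC_Os10g42750, LOC_Os01g73700 and LOC_Os04g53640 as checks, and 3 distant regions per member. Those regions had the highest ratio of observed to expected co-opening with the member, ranked by the lowest of the 4 libraries. Neighbours within 20 kb and the separate Normal peaks were chosen after values were seen. Members, lists and tests were chosen with earlier results of these data known. Marker lists were the first 30 genes of each kind in the study's table, of which 29 each were used, 2 of the root hair genes holding no region. No sequence is shown, because no genome of the files' build was used here.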

Additional observations from a re-analysis of the deposited data

Results flagged for a closer look

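The change after heat at LOC_Os08g02300 differed between groups of nuclei by -0.50 on the log2 scale, being lower in root hair-like than in other nuclei (edgeR interaction test, adjusted p = 0.0279). It was singled out because the adjusted p of the interaction was at most 0.05, and the levels in both HS libraries lay below both Normal levels in root hair-like nuclei and above both in the other nuclei. HS replicate 2 held 111 cut sites in 865 root hair-like nuclei, the fewest of the 4 libraries, and without it the difference was -0.24. The adjusted p was over 0.05 without Normal replicate 2 (0.188), with the replicate number as a block (0.0757) and with DESeq2 (0.108, log2 difference -0.50).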

How the results depend on the processing

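Replicate numbers did not pair the libraries: deviations of same-numbered libraries from their group means correlated at -0.0048 over regions. With the replicate number as a block, the log2 changes of the members moved by little (heat 0.06 and 0.11, root hair-like nuclei -1.07 and -0.72, difference of the heat effect -0.49 and -0.01) and no call by both limits changed, though the adjusted p of that difference at LOC_Os08g02300 went from 0.0279 to 0.0757 by edgeR, while the regions called for that difference fell from 156 higher and 163 lower to 91 and 95; DESeq2 gave 104 lower. With called length as an offset, LOC_Os08g02300 turned to -0.20 after heat, and regions called fell from 1144 and 1608 to 124 and 139. In nuclei at equal depth LOC_Os08g02300 was -0.0563 (SE 0.0577, edgeR adjusted p = 0.433), a value smaller than its SE. With an adjusted p of 0.05 and no fold limit, LOC_Os01g15830 was called at 0.11, with 17794 regions higher and 17118 lower.

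Leaving out 1 library at a time gave 0.00 to 0.10 and 0.08 to 0.14 for heat at LOC_Os08g02300 and LOC_Os01g15830, -1.19 to -0.91 and -0.75 to -0.69 in root hair-like nuclei, and -0.78 to -0.24 and -0.0820 to 0.0715 for the difference of the heat effect, where the sign at LOC_Os01g15830 turned without Normal replicate 2 (0.0715) and without HS replicate 2 (0.02). Without HS replicate 2 LOC_Os08g02300 in root hair-like nuclei was -0.91. All other fits kept the direction of the members and their calls by both limits. By the adjusted p alone, the rise of LOC_Os01g15830 after heat was not past 0.01 without Normal replicate 2 (0.0174), with called length as an offset (0.0126) or at equal depth (0.0251), all by edgeR.

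Shares followed depth. The mean share was 3.53% and 19.6% at 2500 fragments, 11.97% and 50.4% at 10000, and 0.611% and 10.5% with at least 2 fragments. HS minus Normal at LOC_Os08g02300 was -0.0019 percentage points at 2500 fragments, 0.099 at 10000 and 0.010 with at least 2 fragments, and at LOC_Os01g15830 0.643 at 2500 and 0.546 with at least 2. The mean ratio of co-opening was 1.13 at 10000 fragments, 1.32 with at least 2 and 1.11 in strata of depth. Barcodes above the valley of the cut site distribution gave the same nuclei at equal depth. Below 5000 fragments a nucleus could not enter the shares, and 2 libraries a group limit every comparison of Normal with HS.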

Other observations

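Root hair-like nuclei of HS replicate 2 held both members open in 2 nuclei, against 4.21 expected, while the other libraries held 10, 10 and 8, against 8.58, 10.2 and 6.87. In root cap-like nuclei the numbers were 7 and 5 in Normal, against 7.14 and 5.45 expected, and 13 and 9 in HS, against 6.48 and 5.95. All of these intervals but that of HS replicate 1 in root cap-like nuclei, where the ratio was 2.01 (95% Poisson interval 1.07 to 3.43), included 1, and with 8 ratios of this kind none was tested.

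Barcodes removed as doublets held LOC_Os08g02300 at 0.133 and 0.135 cut sites per 10000 in Normal and at 0.160 and 0.164 in HS, and LOC_Os01g15830 at 0.949, 0.951, 1.05 and 1.04.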
